A study of Homo sapiens with 16 samples.

Results

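Genes along human chromosome 7 were described in HEK293 cells with and without depletion of DNA Topoisomerase I (Top1). All 872 genes that the deposited table of total RNA-seq places on chromosome 7 were taken, of 19333 genes in all. Chromosome 7 was put forward for description because an earlier look at the same comparison had found a high share of lower genes on it, so the counts of lower and higher genes below describe that choice and carry no test. HEK293 is a human embryonic kidney line. Scramble cells had been transfected with a negative control RNA and Top1 KD cells with 10 nM of siRNA against Top1, and both were harvested 5 days after the first transfection. There were 2 libraries of each, which the series' design text places in different passages, and ribosomal RNA had been removed from the RNA before sequencing. The siRNA that the RNA-seq cells received is not named in the sources used here. The R-loop and RNA polymerase II libraries are not analysed here.

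Top1 is a nuclear enzyme that nicks one DNA strand and lets it rotate, which relieves the supercoils that build up ahead of and behind an elongating RNA polymerase. Long genes and closely packed genes are both settings in which such supercoils have been studied, and chromosome 7 holds both. Among its known features are the HOXA cluster of developmental regulators, the stretch deleted in Williams syndrome, arrays of taste and olfactory receptor genes and some of the longest neuronal adhesion genes of the genome.

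The table lists genes by Ensembl transcript identifiers, and 0 of the 872 matched a key of the name tables used here. Genes are therefore given by position, with start and end as the table writes them and hg19 as the build named in the submitters' processing notes. A total of 2 rising and 2 falling genes are also given by identifier, and no gene is named. For the same reason TOP1 itself could not be read as a check of the knockdown, and each comparison rests here on the library labels. The study's methods state that depletion was checked on protein blots and in the RNA-seq itself. RNA was bulk, so that fewer cells of a kind and less RNA per cell cannot be told apart.

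The chromosome 7 genes ran from a first start at 192969 to a last end at 158937649, with 449 on the plus and 423 on the minus strand. Values are normalized read counts, meaning reads divided by a size factor per library, and were not scaled for gene length. A gene was tested when at least 2 of the 4 libraries had at least 10 normalized counts. This left 625 genes, while 125 had no read in any library and 122 had reads below that level. The tested genes had a median span of 35.6 kb and a median scramble value of 658 normalized counts, against 31.4 kb and 536 over all 13086 tested genes. Their median distance to the nearest listed gene was 8.54 kb, against 4.67 kb. Chromosome 7 took 5.12% and 5.14% of all reads on genes in scramble cells, and in Top1 KD cells 5.07% and 5.04%. The groups did not overlap, which held for 19 of 23 chromosomes. An exact permutation test of 2 against 2 libraries cannot give a two-sided p below 0.333.

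Of the 625 genes tested, 43 were called lower in Top1 KD cells (6.88%) and 24 were called higher (3.84%), or 10.7% in either direction. A call meant at least a 1.5-fold change and a Benjamini-Hochberg adjusted p under 0.05 by limma, fitted over all tested genes of the table. The background over all tested genes was 4.26% lower and 3.88% higher, or 8.15% in either direction. Over the 22 other chromosomes compared, the lower share ran from 2.41% on chromosome 4 to 9.57% on chromosome 22, with chromosome 7 second. At a 2-fold change, 19 genes of chromosome 7 were lower and 8 higher, against backgrounds of 1.55% and 1.05%. With the adjusted p alone and no fold threshold, 73 were lower and 48 higher, against 7.63% and 7.17%. In every one of the 67 called genes, the 2 Top1 KD libraries lay on one side of the 2 scramble libraries. Counting all tested genes with that property, called or not, 206 were lower (33.0%) and 179 higher (28.6%), against backgrounds of 29.0% and 28.8%.

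The median over the chromosome lay close to that of all genes. The log2 fold change, taken on normalized counts plus 1 and so understated for low genes, had a median of -0.02 over the tested genes of chromosome 7, against 0.00 over the whole table, and the medians of the 4 ways of setting 1 Top1 KD library against 1 scramble library ran from -0.03 to -0.00. The median ratio of the Top1 KD mean to the scramble mean was 0.985. The quartiles were -0.31 and 0.28 on the log2 scale, against -0.30 and 0.28 over all tested genes. Between the replicates themselves, 84 genes differed at least 1.5-fold in scramble cells (13.4%) and 99 in Top1 KD cells (15.8%). The call on single genes therefore rests on a spread borrowed from other genes by limma, and the number of calls was sensitive to the loss of a library. Without scramble replicate 1, 10 genes were called lower and 12 higher, against backgrounds of 1.08% and 1.34%. Without scramble replicate 2 these counts were 14 and 12, against 1.51% and 1.73%. Each of these fits rests on 3 libraries, and both control libraries moved the count. Omitting Top1 KD replicate 1 left 31 and 9, against 2.67% and 1.70%. Omitting Top1 KD replicate 2 left 43 and 29, against 5.73% and 4.42%, of which 33 and 16 were shared with the full set.

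The largest falls were deep, and 5 of the 10 given here lay in the first 10 Mb of the chromosome. Genes are ranked here when they were called, averaged 100 or more normalized counts over the 4 libraries and showed no overlap between groups, of which there were 39 lower and 23 higher. ENST00000430479 (13930853 to 14029571, minus strand) had 281 and 370 normalized counts in scramble cells, against 31.4 and 41.7 after knockdown. Its log2 fold change was -3.12 (standard error 0.37, limma adjusted p = 0.000103). The gene is 98.7 kb long and stood 155 kb from the nearest listed gene, which had a log2 fold change of 0.88 and was not called.

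ENST00000313766 (192969 to 300711, plus strand), the first gene of the chromosome in the table, had 290 and 315 normalized counts in scramble cells and 22.7 and 82.4 in Top1 KD cells. Its log2 fold change was -2.77 (standard error 0.47, limma adjusted p = 0.00142). Both Top1 KD libraries were low, but they differed from each other more than the scramble libraries did. Leaving out Top1 KD replicate 1 gave a log2 fold change of -1.86 and leaving out Top1 KD replicate 2 gave -3.68. The gene was called in both cases.

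The falls ranked 3 to 5 had close replicates. The gene from 937540 to 994333 had 348 and 376 normalized counts in scramble cells and 50.9 and 54.3 in Top1 KD cells (log2 fold change -2.76 ± 0.32 standard error, adjusted p = 9.19e-05 by limma). For the gene from 101006122 to 101202302, the values were 288 and 288 against 46.5 and 57.2 (log2 fold change -2.46 ± 0.34 standard error, adjusted p = 0.000322 by limma). The gene from 6655248 to 6663921 went from 413 and 411 to 73.6 and 82.4 (log2 fold change -2.39 ± 0.28 standard error, adjusted p = 0.000100 by limma). These 3 genes span 56.8, 196 and 8.67 kb, so the depth of the fall did not go with one length.

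The next 5 falls ran from -1.75 to -1.28 on the log2 scale. The gene from 1570350 to 1582679 had 260 and 221 normalized counts in scramble cells and 43.3 and 115 in Top1 KD cells. It overlaps a listed gene of the opposite strand, which had a mean of 8.89 normalized counts in scramble cells and was not tested. Its call was lost when any library but Top1 KD replicate 2 was left out. The gene from 128470431 to 128499326 had 439 and 369 against 149 and 133, and the one from 64432154 to 64451414 had 222 and 167 against 68.2 and 75.6. The latter overlaps the end of another minus-strand gene, and reads in the shared stretch may belong to either. That neighbour had a log2 fold change of 0.28 and was not called.

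The gene from 5632454 to 5646286 had the most reads among the 10 largest falls. It went from 2446 and 2313 normalized counts to 856 and 1095 (log2 fold change -1.30 ± 0.13 standard error, adjusted p = 5.33e-05 by limma). The last of the 10, from 31092076 to 31151089, went from 319 and 331 to 130 and 136. Since ranked genes showed no overlap between groups, their sign could not change in the 4 fits that left out a library. Across the 10 falls, 6 were called in each of these fits. The exceptions lie at 1570350, 128470431, 64432154 and 31092076, and all 4 lost their call without scramble replicate 1.

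The rises were smaller. The largest by the same rule was that of ENST00000304874 (65540785 to 65558545, plus strand), from 52.3 and 86.2 normalized counts in scramble cells to 142 and 217 in Top1 KD cells. Its log2 fold change was 1.37 (standard error 0.39, limma adjusted p = 0.0278), and it was called in none of the 4 fits that left out a library. ENST00000011473 (105730951 to 105753022, minus strand) had 461 and 475 normalized counts in scramble cells and 1273 and 990 in Top1 KD cells. Its log2 fold change was 1.26 (standard error 0.16, limma adjusted p = 0.000218), and it was called in all 4 of them.

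The third rise, from 55980331 to 56009918, went from 88.6 and 139 to 234 and 281 normalized counts. The fourth is the longest tested gene of the chromosome, on the plus strand from 145813453 to 148118090. It spans 2305 kb and went from 238 and 279 to 649 and 532 normalized counts (log2 fold change 1.19 ± 0.21 standard error, adjusted p = 0.00158 by limma). The groups stood well apart there, and the call held with each library left out. The remaining 6 rises had log2 fold changes from 1.13 to 0.88 and spans from 8.82 to 149 kb. Across the 10 rises, 3 were called in each of the 4 fits that left out a library. The other 7 lost their call in 1 or more of them, and each of the 4 libraries cost some of them their call. Their sign was again fixed by the absence of overlap.

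**Figure D1:**
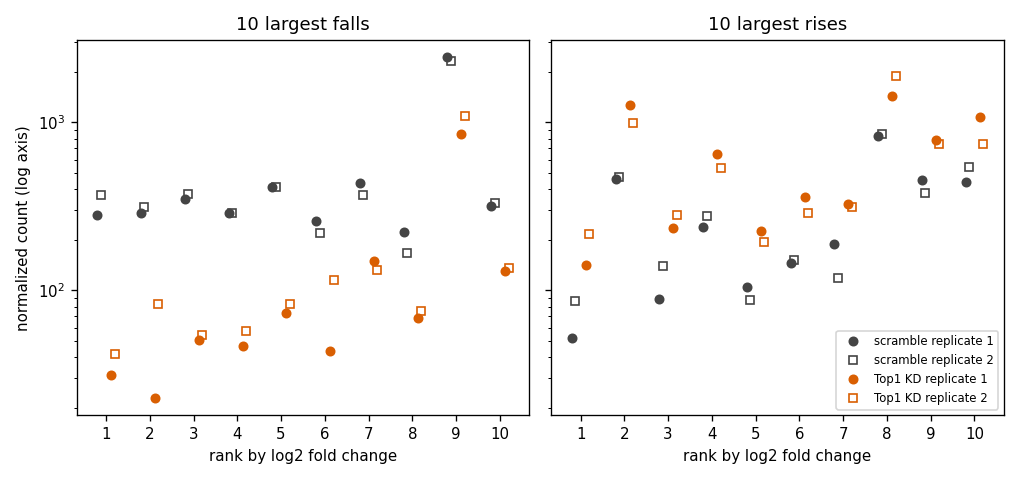
Normalized counts (log axis) in each library for the 10 largest falls (left) and the 10 largest rises (right) among called chromosome 7 genes that average 100 or more, ranked by log2 fold change. Grey marks are the scramble libraries and orange marks the Top1 KD libraries, circles for replicate 1 and squares for replicate 2. Genes were kept only without overlap between groups, so the orange marks lie below the grey ones in each fall and above them in each rise. The separation is widest among falls 1 to 5.

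Called genes with few reads fell outside that rule. The gene from 47814250 to 47988088 had 35.2 and 73.0 normalized counts in scramble cells, against 0 and 0.969 in Top1 KD cells, which is at most 1 read per library. It overlaps another listed gene. Of the 43 lower genes 4, and of the 24 higher genes 1, had a mean under 100. The higher one, from 2559496 to 2568811, had 14.9 and 0 normalized counts in scramble cells and 60.6 and 56.2 in Top1 KD cells. These genes, added after their values were seen, carry the least depth of all the calls.

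Among the genes with the most reads, changes were small in fold. The 5 with the highest scramble values held 12.2% of the normalized counts of the chromosome in scramble cells. The top one, from 26229547 to 26240366, had 36789 and 31443 normalized counts in scramble cells and 24304 and 27740 in Top1 KD cells. Its log2 fold change was -0.39, short of 1.5-fold (limma adjusted p = 0.0145). Its nearest neighbour starts 0.416 kb away on the opposite strand and had a log2 fold change of -0.47, also not called. The second, from 44836279 to 44842716, had 23560 and 22818 against 24484 and 27674 (log2 fold change 0.17, adjusted p = 0.226 by limma).

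The third, from 2394501 to 2420378, was the one call among these 5. It went from 16748 and 17129 normalized counts to 10055 and 10400 (log2 fold change -0.73 ± 0.08 standard error, adjusted p = 9.19e-05 by limma). The replicates differed little in either group. The other 2, starting at 99690404 and 56119323, had log2 fold changes of -0.41 and -0.34 (adjusted p = 0.00624 and 0.0156 by limma), below the fold threshold. The former overlaps a plus-strand gene with far fewer reads.

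Position was described by 10 Mb bins of gene start, of which there were 16, with 17 to 70 tested genes each. The genes called lower were spread over 12 bins and those called higher over 10. The bin from 0 to 10 Mb held the most calls, with 10 of 60 tested genes lower (16.7%) and 4 higher (6.67%), against the 4.26% and 3.88% of the whole table. The bin from 100 to 110 Mb followed, with 7 of 66 lower (10.6%) and 3 higher (4.55%), the latter near the background. The bins from 20 to 30 Mb and from 110 to 120 Mb, with 47 and 21 tested genes, held no call. The last bin, from 150 to 160 Mb, held 5 lower genes of 41 and no higher gene.

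**Figure D2:**
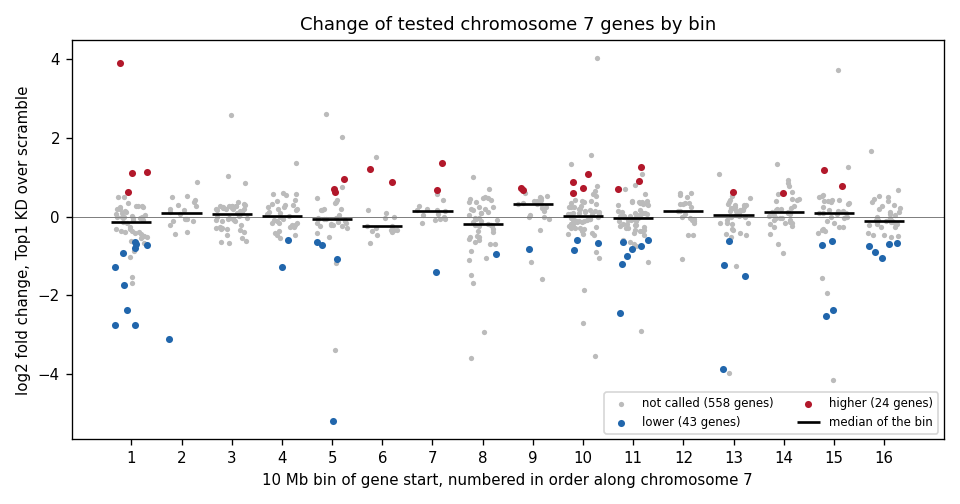
Log2 fold change of the 625 tested chromosome 7 genes, one point per gene, in 10 Mb bins of gene start numbered in order from 1 (0 to 10 Mb) to 16 (150 to 160 Mb). Blue points were called lower (43 genes), red points higher (24 genes) and grey points neither (558 genes), and black lines are bin medians. The bin with the most calls is bin 1, with 10 lower and 4 higher genes, and bins 3 and 12 have none.

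In the first 10 Mb, lower genes were interleaved with higher and uncalled ones. The median log2 fold change was -0.15, 40 of the 60 tested genes were below 0, and the medians of the 4 library pairs ran from -0.25 to -0.06. Between replicates, the same median was -0.01 for scramble and 0.02 for Top1 KD cells. Besides the 5 deepest falls of this bin and the abundant gene at 2394501 given above, the lower genes started at 766338, 2291405, 4721940 and 6728064. Their log2 fold changes were -0.92, -0.80, -0.70 and -0.66.

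Close neighbours could be unlike. The lower gene from 4721940 to 4811074 had 1456 and 1524 normalized counts in scramble cells and 1021 and 827 in Top1 KD cells. The next gene on the same strand starts 4.18 kb after its end and was called higher, with 146 and 152 against 360 and 288. At 8008425 and 8152817, by contrast, 2 consecutive genes on opposite strands were both called higher, with log2 fold changes of 0.62 and 1.13.

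The bin from 80 to 90 Mb had the highest median, at 0.31 over 24 tested genes, of which 17 were above 0. Its pair medians ran from 0.20 to 0.29, and the replicate medians were 0.02 for scramble and -0.07 for Top1 KD cells. Its genes were also the longest of all bins, with a median span of just under 100 kb. The consecutive minus-strand genes from 82993222 to 83278326 and from 83585093 to 83824217 were called higher, at 0.73 and 0.67. They had 365 and 529 against 650 and 816 normalized counts, and 430 and 446 against 596 and 810. A short gene of this bin, from 89783689 to 89794141, was called lower, from 448 and 518 to 298 and 247. The displacement of the bin included genes below the fold threshold, and 12 of the 24 had both Top1 KD libraries above both scramble libraries (50%). This share was 28.8% over all tested genes and 38.2% over those of 80 to 200 kb. The bin was singled out by its median, so a high share follows in part from that choice.

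The bin from 70 to 80 Mb had the lowest median among bins with at least 20 tested genes, at -0.19 over 49 genes, of which 31 were below 0. It held 1 called gene, from 75508266 to 75518239, which went from 962 and 817 to 494 and 420 normalized counts. The median and its rank depended on the libraries. It was -0.07 without scramble replicate 2 and -0.08 without Top1 KD replicate 1, and it was the lowest in 1 of the 4 fits that left out a library, the first 10 Mb being lowest in the other 3. Over its 34 genes averaging 100 or more normalized counts it was -0.08. This bin also had the lowest median scramble value, at 352 normalized counts. The thin bin from 50 to 60 Mb, with 17 tested genes, had a median of -0.24 and yet 2 called genes, both higher.

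Over all bins, 10 medians were above 0 and 6 below. Medians between replicates reached at most 0.10 in size for scramble and 0.08 for Top1 KD cells. In 13 of the 16 bins the median between the groups was larger in size than both replicate medians of the same bin. All 4 library pairs were on one side of 0 in 12 bins, 6 above and 6 below. In 11 bins the sign held with each library left out. The 5 that did not hold were 20 to 30, 30 to 40, 90 to 100, 110 to 120 and 140 to 150 Mb. Over the 624 pairs of consecutive tested genes, which share libraries, Spearman's rho was 0.08 (0.04 over the whole table), against 0.05 between the Top1 KD replicates and -0.02 between the scramble replicates. The 2 genes changed with the same sign in 53.2% of pairs, against 52.9% and 52.4% between replicates, so no likeness of neighbours stood out.

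**Figure D3:**
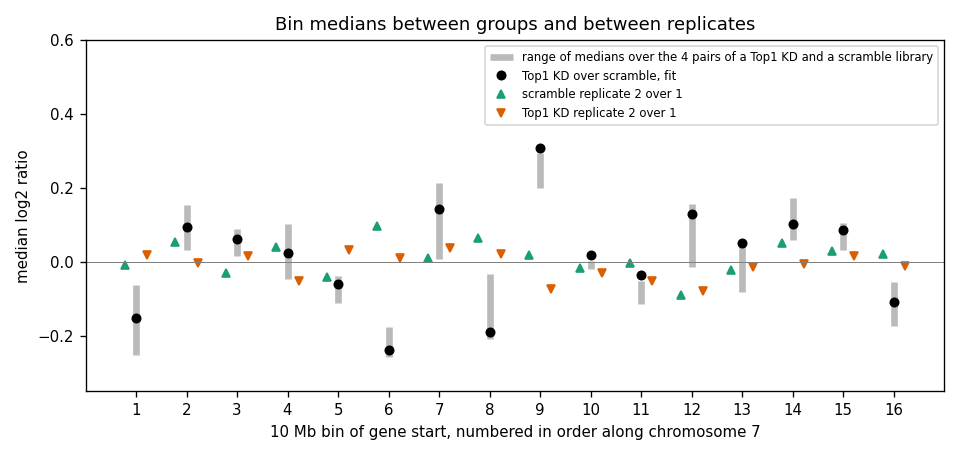
Median log2 ratio per 10 Mb bin of gene start, numbered in order along chromosome 7. Black circles are Top1 KD over scramble in the fit, grey bars the range of medians over the 4 ways of setting 1 Top1 KD library against 1 scramble library, green triangles scramble replicate 2 over 1 and orange triangles Top1 KD replicate 2 over 1. Bin 9 (80 to 90 Mb) is highest at 0.31, and the replicate medians stay within 0.10 of 0. A median of averaged values need not lie within the range of the pair medians.

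The widest stretch without a listed gene ran from 57533252 to 62809239, or 5.28 Mb. Before it lay 220 tested genes with a median log2 fold change of -0.05, and after it 405 with a median of 0.01. Lower genes made up 7.73% and 6.42% of these sides and higher genes 4.09% and 3.70%. No test of these differences was made.

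Of the 624 pairs of consecutive tested genes, 7 had both genes called, where 10.7% of tested genes had a call. The same count over the whole table was not made. In 3 pairs both genes were lower, in 2 both were higher and in 2 they went opposite ways. The closest pair converges, with ends 1.16 kb apart. Its plus-strand gene, from 100027254 to 100031741, was called higher, with 901 and 655 normalized counts against 1285 and 1217. Its minus-strand partner, from 100032905 to 100034188, was called lower, with 465 and 490 against 175 and 320. Whether reads were counted by strand is not stated, so that reads running past the end of one gene cannot be told apart from those of the other.

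Gene length went with the change. Among the 573 tested genes that span 5 kb or more, Spearman's rho between length and log2 fold change was 0.19, across genes that share libraries and are not replicates, against 0.13 over the whole table. The median was -0.11 for the 160 genes of 5 to 20 kb, -0.05 for the 118 of 20 to 40 kb, -0.01 for the 104 of 40 to 80 kb and -0.00 for the 116 of 80 to 200 kb. It was 0.24 for both the 42 genes of 200 to 400 kb and the 33 of at least 400 kb. Over the whole table, the medians of the last 2 classes were 0.18 and 0.24. In the 2 longest classes of chromosome 7, 20 and 16 genes had both Top1 KD libraries above both scramble libraries (47.6% and 48.5%), near the 46.1% and 46.2% of these classes over the whole table. In the class of 5 to 20 kb, 35 were above (21.9%) and 72 below (45.0%), against 24.3% and 31.2%.

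**Figure D4:**
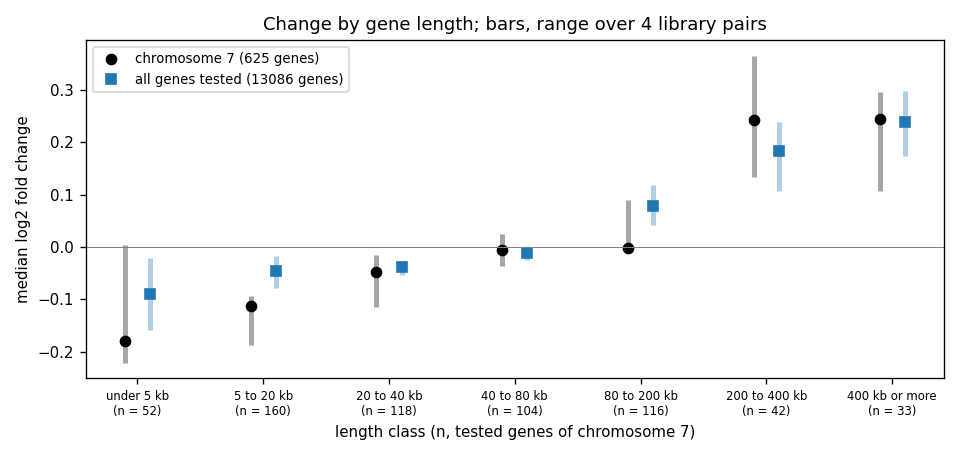
Median log2 fold change by gene length for tested genes of chromosome 7 (black circles, n per class on the axis) and of the whole table (blue squares), with bars for the range of medians over the 4 ways of setting 1 Top1 KD library against 1 scramble library. Medians of chromosome 7 rise from -0.11 at 5 to 20 kb to 0.24 at 200 kb and over.

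The length trend was also taken between replicates, where Spearman's rho was -0.12 for the Top1 KD pair and 0.07 for the scramble pair. Over the whole table these values were -0.16 and -0.00, beside the 0.13 between the groups. With Top1 KD replicate 1 or 2 alone, the whole-table trend was 0.16 or 0.06, and that of chromosome 7 was 0.20 or 0.15. The part of library differences in the trend was not tested. Length also went with distance to the nearest gene (rho = 0.29) and, less, with scramble level (rho = 0.15). The rho of distance with log2 fold change was 0.13.

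Among the 33 genes that span 400 kb or more, 2 rose (6.06%) and 1 fell (3.03%), where the whole table had 10.3% and 2.56% in this class. The higher ones are the gene of 2305 kb given above and the plus-strand gene from 69064319 to 70258054. The latter had 6903 and 6396 normalized counts in scramble cells and 11709 and 9564 in Top1 KD cells (log2 fold change 0.67 ± 0.10 standard error, adjusted p = 0.000697 by limma). The minus-strand gene from 77646393 to 79082890, second in length at 1436 kb, had 1129 and 1219 against 1582 and 1687. Its log2 fold change of 0.48 (limma adjusted p = 0.0171) was below the fold threshold. Against the trend, the gene from 157331760 to 158380371, 1049 kb long, was called lower, from 467 and 410 to 216 and 249 normalized counts.

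Genes called lower had a median span of 20.4 kb, those called higher 31.97 kb and the others 36.9 kb. Over the whole table the first 2 medians were 24.8 and 42.8 kb. Of the 43 lower genes, 19 were shorter than 20 kb and 9 were at least 80 kb long. The same counts were 7 and 8 of the 24 higher genes, and 186 and 174 of the 558 genes not called. The counts were close on both strands. Of 315 tested plus-strand genes 24 were lower and 12 higher (7.62% and 3.81%), against 4.12% and 3.95% of plus-strand genes over the whole table. Of 310 minus-strand genes 19 were lower and 12 higher (6.13% and 3.87%), against 4.41% and 3.81%. Median log2 fold changes were -0.02 and -0.01.

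By scramble level, 17 of 183 tested genes from 300 to 1000 normalized counts were lower (9.29%) and 10 higher (5.46%), against 6.46% and 6.23% over the whole table. From 1000 to 3000, 15 of 171 were lower (8.77%) and 4 higher (2.34%), against 4.17% and 2.76%. At 3000 or more, 2 of 66 were lower (3.03%) and 3 higher (4.55%), against 4.77% and 1.91%, so the order of the 2 shares was reversed there. Below 100, 3 were lower and 3 higher of 111, where the whole table had 23 and 45 of 2804. Median log2 fold changes went from 0.08 under 100 to -0.10 at 3000 or more, against 0.00 and -0.08 over the whole table. The scramble value enters the fold change, and a gene with under 10 normalized counts in both scramble libraries was tested only if it was higher in Top1 KD cells, so the left end of this range is tilted upwards by construction. With genes grouped by the mean of all 4 libraries instead, the highest share of lower genes was at 100 to 300 normalized counts. It was 12 of 100 there, where the whole table had 5.64%. At 1000 to 3000, 10 of 165 were lower (6.06%), against 3.31%. The medians were -0.05 under 100 and -0.05 at 3000 or more.

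**Figure D5:**
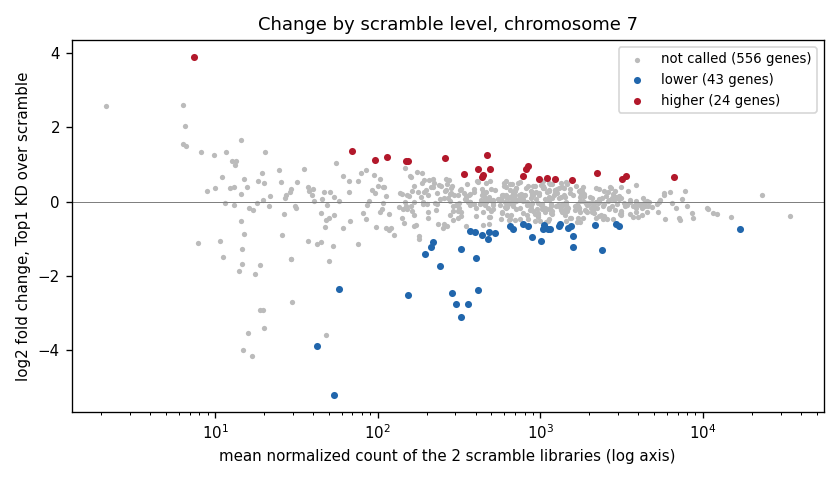
Log2 fold change against the mean normalized count of the 2 scramble libraries (log axis) for tested chromosome 7 genes with a scramble mean above 0. Blue points were called lower (43 genes), red points higher (24 genes) and grey points neither (556 genes). The deep falls of the named genes lie between scramble means of 288 and 412. The mean count required of named genes limits how low this range can reach. Called falls with log2 fold changes of -5.21, -3.88, -2.52 and -2.37 did not meet that requirement. Their scramble means were 54.1, 42.6, 153 and 58.1, in the same order. Points above 2 sit at the left end of the axis.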

How the data were processed

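Total RNA-seq of 2 scramble and 2 Top1 KD libraries was used. The authors trimmed the single-end reads (fastq-mcf), mapped them and kept unique alignments. The submitters' processing notes name TopHat2 2.0.5, HTSeq, DESeq2 and hg19, with no role or annotation release given. Per the file header, the deposited values are DESeq2 normalized counts, a signal per library. The authors' own comparison and calls (mean, log2 fold change, its error, test statistic, p-values) sit in the same table and were not used. The number of value columns without a sample was 0.

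Normalized counts below 2000 were whole multiples of 1 read (100% within 0.05 read), so reads were recovered. Libraries held 15258182 and 18366226 (scramble) and 14681774 and 16503586 (Top1 KD) reads on genes. Because the table holds no raw counts, groups were compared with limma 3.58.1 in R 4.3.3 (mean-variance trend) after adding a pseudocount of 1 and taking log2, which understates changes of low genes. The filter was 10 normalized counts in 2 libraries. The count tests on recovered reads were edgeR 4.0.16, which called 42 chromosome 7 genes lower and 23 higher, and DESeq2 1.42.0. These, other scaling, filters, thresholds and pseudocounts, and a fit without each library were alternatives, and the method was tested on simulated data. Genes given singly were the 10 called genes that rose most and the 10 that fell most, if they averaged 100 or more normalized counts without overlap between groups, the 5 highest scramble values and the 3 longest genes. Members, lists and tests were chosen with earlier results of these data known. P-values measure the spread between these libraries only. No sequences are shown, since no identifier matched a sequence table.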

Additional observations from a re-analysis of the deposited data

How the results depend on the processing

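Counts of 43 lower and 24 higher genes stayed within 1.5 times under both count tests on recovered reads, library-size scaling, both filters and both pseudocounts, from 39 to 44 lower and from 23 to 27 higher, with backgrounds from 3.39% to 5.11% and from 3.08% to 5.02%. Same-numbered libraries showed no shared deviation (correlation of deviations -0.01), which cannot tell whether they were made together. With a replicate block 41 lower and 24 higher genes were called, against backgrounds of 4.34% and 3.95%. Thresholds moved the counts by construction. A log2 fold threshold of 0.32 gave 72 lower and 47 higher (backgrounds 7.44% and 7.05%), a fold threshold of 2 gave 19 and 8, no fold threshold gave 73 and 48, and Bonferroni adjustment gave 7 and 2 (backgrounds 0.481% and 0.382%). With 1 library left out, from 10 to 43 genes were lower and from 9 to 29 higher, where the lone library is assumed to vary like the other group and fewer libraries leave less power by construction.

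The median of -0.02 was 0.00726 with library-size scaling and -0.0300 with no filter, and from -0.0235 to -0.00517 with a library left out. The length trend was 0.26 over genes averaging 100 or more normalized counts, 0.15 with no filter, 0.19 over all lengths and from 0.15 to 0.20 with a library left out. With a library left out, the median of the 80 to 90 Mb bin ran from 0.20 to 0.31 and stayed the highest. That of the 70 to 80 Mb bin ran from -0.258 to -0.0687. It was the lowest in 1 of 4 fits among bins with at least 20 tested genes. The thin bin from 50 to 60 Mb was lower in each fit, from -0.285 to -0.188. Over genes averaging 100 or more, the median of the 70 to 80 Mb bin was -0.0804. The cause of these movements was not tested. None of the 10 falls, 10 rises, 5 highest and 3 longest genes changed sign. All of them had groups that did not overlap, so with a library left out their sign could not change. With 2 libraries per group, depth and replicate number limit genes under 100 normalized counts most.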

Other observations

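The 122 chromosome 7 genes with reads below the level of testing had reads only in scramble libraries in 41 cases and only in Top1 KD libraries in 18. The same counts over the whole table were not made. Scramble libraries had values above 0 for 14264 and 14398 genes of the whole table, and Top1 KD libraries for 14029 and 14224. Untested genes were unevenly spread. From 140 to 150 Mb, 40 of 80 listed genes were not tested (50.0%), against 4 of 28 (14.3%) from 80 to 90 Mb. A further 4 tested genes were listed at 0 in both libraries of 1 group, and none of them was called.

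Of the 67 called genes, 11 differed at least 1.5-fold between the Top1 KD replicates, where 15.8% of tested chromosome 7 genes and 18.5% of all tested genes did. Of these 11, 10 had the higher value in replicate 2, a direction that was not counted over the other genes. Of the called genes, 6 overlap another listed gene and all 6 were called lower, so that their reads may be shared with a neighbour. Among the uncalled genes of chromosome 7, 70 of 558 overlap one. The share was 12.2% over tested genes of chromosome 7 and 14.8% over all tested genes.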
